A study of Mus musculus with 15 samples.

Results

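FOXO factors and their targets were followed across 5 treatments of mouse mammary tumour spheres. The set comprised 10 genes, which were the transcription factors Foxo1 and Foxo3 and 8 genes known as FOXO targets, namely Irs2, Pik3ip1, Fbxo32, Sesn3, Txnip, Ccng2, Bcl6 and Cited2. Members were the probe sets annotated to exactly 1 of these genes, which gave 23 of the 34945 probe sets that name a single gene. A further probe set that names Foxo3 together with another gene was left out. All 10 genes were among the 11412 genes bright enough to be tested, and 22 of the 23 probe sets passed the same filter, which asked for a signal above the array's median on at least 3 of 15 arrays. The exception was a dim Foxo1 probe set.

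Primary mammary tumour cells of FVB/N mice carrying MMTV-PyMT, a polyoma middle T oncogene under the control of a mouse mammary tumour virus promoter, were grown as floating mammospheres in serum-free medium with EGF, FGF and B27. After 10 days the spheres received for 2 days DAPT, a γ-secretase inhibitor that blocks Notch cleavage, U0126, which inhibits MEK1, TAE226, which inhibits focal adhesion kinase (FAK), PP2, which inhibits Src, or vehicle. All groups, vehicle included, carried the oncogene and received the same growth factors. Each group had 3 samples labelled as biological replicates, each read on 1 Affymetrix Mouse430_2 array, and no source used here states the doses.

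FOXO proteins are forkhead transcription factors that sit at the end of the insulin and PI3K-AKT pathway. When AKT is active it phosphorylates them, and they are held in the cytoplasm. When AKT activity is low they enter the nucleus and switch on genes for cell cycle arrest, stress resistance, protein breakdown and feedback to the insulin receptor. Arrays measure RNA, so neither phosphorylation nor location of the FOXO proteins was read here. Several of the target genes also have other known regulators, for example Txnip, which is induced by glucose through MondoA and ChREBP at a carbohydrate response element.

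The luminal epithelial markers Krt8, Krt18, Krt19 and Epcam lay above the array median on all 15 arrays, as did the basal markers Krt5, Krt14 and Trp63. Ptprc, Pecam1, Cdh5, Col1a1, Dcn, Adipoq and Fabp4, which define leukocytes, endothelium, fibroblasts and adipocytes, were above the median on 0 arrays. Of the other markers of these cell types, Kdr was above it on 6 arrays, Col1a2 on 4, Pdgfra on 2, and Cd3e and Ms4a1 on 1 each, none at more than 1.41 times its array's median. The leukocyte gene Cd52 was above it on 3 arrays, those of PP2, and 4 leukocyte markers summed to 229 to 308 under PP2 and 57 to 135 with vehicle. The summed signal of 4 basal markers ranged from 18414 to 18835 under DAPT, 15608 to 17559 under U0126, 10186 to 10914 under TAE226, 8175 to 8924 under PP2 and 12203 to 13596 with vehicle. These markers did not move together, since under U0126 Krt14 lay above its vehicle arrays while Krt5, Krt15 and Trp63 lay below theirs. Krt15 read 3528 to 3733 under DAPT and 226 to 235 with vehicle. The summed signal of 4 luminal markers ranged from 38978 to 40888 under DAPT and from 45977 to 55474 over the other groups, vehicle included. The luminal markers did not move together either. Krt19 read 1832.5 to 2038 under DAPT, 1881 to 2101 under TAE226 and 2556 to 2855 under PP2, against 3409.5 to 3752 with vehicle. Under U0126 Krt8 lay above its vehicle arrays and Epcam below its own. The control probe sets for actin gave a 3′ over 5′ ratio, a measure of RNA shortening, of 1.35 ± 0.069 under DAPT, 1.28 ± 0.067 under U0126, 1.33 ± 0.075 under TAE226, 1.57 ± 0.038 under PP2 and 1.42 ± 0.06 with vehicle (SD, n = 3 each). The part of these differences in the results below was not tested, and in RNA from whole spheres a change in the share of a cell type and a change in RNA per cell cannot be told apart.

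Promoter sequence was read for the members because the 10 genes share a proposed regulator. RefSeq start sites on GRCm38.p6 gave 300-base windows, from 250 bases before to 50 bases after the start, for 9 of the 10 genes, all but Fbxo32, with 2 windows for Bcl6. The FOXO element GTAAACA, searched on both strands, occurred in 3.65% of all 32851 windows and in 1 of the 10 member windows, that of Txnip. The insulin response element CAAAACA occurred in 6.28% of all windows and in 2 of the 10 member windows, those of Irs2 and Ccng2. The carbohydrate response element, a pair of CACGNG boxes spaced by 5 bases, occurred in 0.0487% of all windows, 16 in number, and among the members in that of Txnip. Only this spelling, with both boxes in the same direction, was searched. The element was already known at Txnip, so that match was foreseen and the share of all windows lends it no weight. No match overlapped another. The windows of Txnip and Ccng2 are shown up to the start site because both genes rose under DAPT, TAE226 and PP2, and the capitals mark the matches. The Txnip stretch is chr3:96557707-96557956 on the plus strand, with the FOXO element starting 121 bases and the carbohydrate response element starting 85 bases before the start site. The Ccng2 stretch is chr5:93267323-93267572 on the plus strand, with the insulin response element starting 16 bases before the start site.
Txnip: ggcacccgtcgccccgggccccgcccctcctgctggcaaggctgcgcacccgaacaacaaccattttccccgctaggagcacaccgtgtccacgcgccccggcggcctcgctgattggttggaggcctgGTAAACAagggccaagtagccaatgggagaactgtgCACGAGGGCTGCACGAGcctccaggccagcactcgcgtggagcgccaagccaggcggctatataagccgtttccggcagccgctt
Ccng2: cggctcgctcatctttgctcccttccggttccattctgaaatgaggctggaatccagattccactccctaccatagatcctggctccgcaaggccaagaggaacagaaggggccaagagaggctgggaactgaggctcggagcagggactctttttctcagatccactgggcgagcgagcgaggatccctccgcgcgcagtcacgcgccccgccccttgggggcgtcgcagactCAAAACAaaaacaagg
A match describes these letters in this window and does not show binding.

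The 10 genes did not move as a block. Against vehicle, under DAPT 5 rose (Fbxo32, Txnip, Sesn3, Ccng2 and Bcl6) and 1 fell (Cited2), while 34.6% of all genes tested were called, 17.1% higher and 17.5% lower. Under U0126, 2 rose (Fbxo32 and Foxo1) and 3 fell (Txnip, Cited2 and Bcl6), against 40.9% of all genes called, 19.5% higher and 21.4% lower. Under TAE226, 3 rose (Fbxo32, Txnip and Ccng2) and 1 fell (Cited2), against 31.1% of all genes, 15.2% higher and 15.9% lower. Under PP2, 4 rose (Txnip, Ccng2, Fbxo32 and Sesn3) and 0 fell, against 52.8% of all genes, 26.1% higher and 26.7% lower, so that the share of members called lay below that of all genes in this comparison. The median log2 fold change of the 10 genes was 0.24 under DAPT, −0.03 under U0126, 0.14 under TAE226 and 0.17 under PP2, beside medians over all genes of 0.02, 0.00, 0.02 and 0.02 in the same order. A call is an adjusted p below 0.05 from limma with Benjamini-Hochberg adjustment over all genes tested, and the 4 comparisons share the 3 vehicle arrays. By limma's F-test over the 5 groups, 8 of the 10 genes differed among treatments, against 73.2% of all genes, with Foxo3 (adjusted p = 0.233) and Irs2 (0.191) the exceptions.

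**Figure D1:**
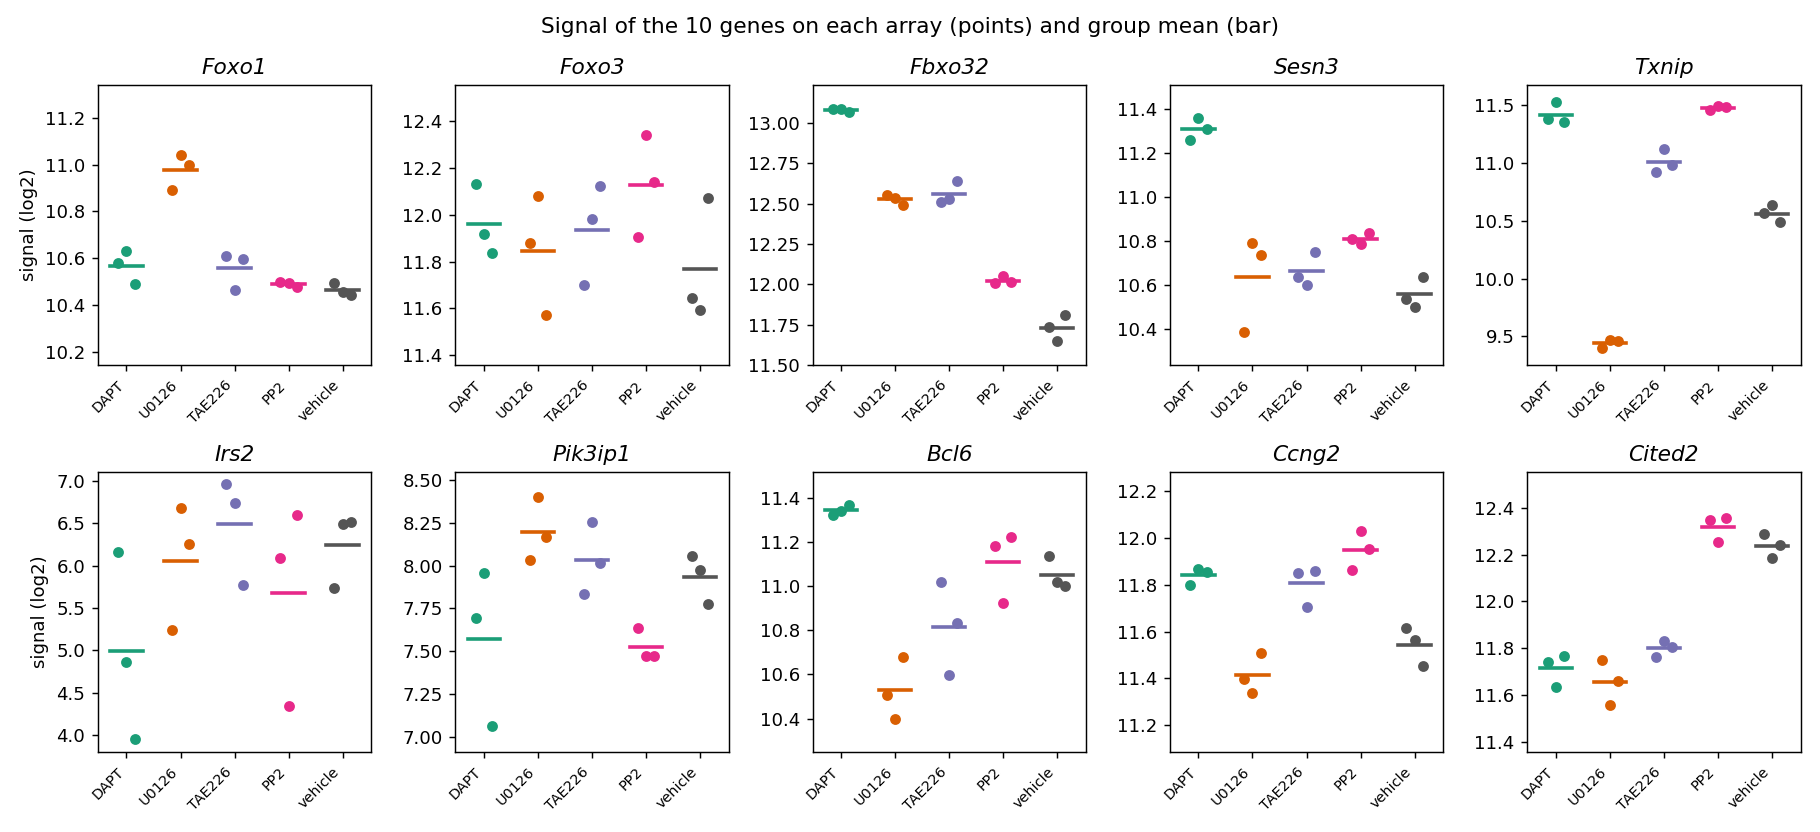
Signal (log2) of each of the 10 genes on the 15 arrays, read by the gene's brightest probe set, with a point per array and a bar at the group mean. Fbxo32 is above vehicle in all 4 inhibitor groups, Txnip lies below vehicle under U0126 and above it under the other 3 inhibitors, and the Foxo3 and Irs2 groups overlap.

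Foxo1, the FOXO factor best known from insulin signalling in liver, rose under MEK inhibition. Its signal, the linear MAS5 intensity of its brightest probe set, was 1898, 2104 and 2048 under U0126, against 1441, 1404 and 1391 with vehicle. Every U0126 array lay above every array of the other 4 groups. The log2 fold change was 0.51 (SE 0.058, 1.43-fold, adjusted p = 2.06e-06, n = 3 each). Signals were 1531, 1583 and 1435 under DAPT, 1560.2, 1413 and 1549 under TAE226 and 1445, 1440.0 and 1424 under PP2. Each of these groups overlapped vehicle, with log2 fold changes of 0.10 under DAPT, 0.09 under TAE226 and 0.03 under PP2 (adjusted p = 0.191, 0.247 and 0.745 in that order). Foxo1 under U0126 was also higher than under DAPT, TAE226 and PP2, by 0.42 on the log2 scale against TAE226 (adjusted p = 2.7e-05) and 0.49 against PP2 (1.86e-06). A second Foxo1 probe set rose in all 4 comparisons, by 0.28 under DAPT, 0.57 under U0126, 0.31 under TAE226 and 0.32 under PP2 (adjusted p from 9.62e-06 to 0.00638), and the remaining tested one rose under DAPT (0.23, 0.0425) and U0126 (0.50, 0.000177). The rise under U0126 was thus called by all 3 tested Foxo1 probe sets, and that under no other inhibitor was. The mean over probe sets also called Foxo1 higher under DAPT (0.21, adjusted p = 0.00306), TAE226 (0.20, 0.00362) and PP2 (0.17, 0.00592).

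Foxo3, a FOXO factor that acts on stress and cell death genes, had widely spread arrays. Its brightest probe set read 4493, 3867 and 3659 under DAPT, 3765, 4334 and 3042 under U0126, 3329, 4049 and 4458 under TAE226, 3835, 5187 and 4515 under PP2, and 3198, 3085 and 4302 with vehicle. All groups overlapped one another. No comparison against vehicle was called, the nearest being PP2 with a log2 fold change of 0.36 (95% interval 0.05 to 0.67, adjusted p = 0.051). Without vehicle replicate 3, the highest of the vehicle arrays, the PP2 difference was called (adjusted p = 0.00829), as it was without PP2 replicate 1 (0.0237), with quantile normalization (0.0333), with a pseudocount of 64 (0.0481) and with the stricter filter (0.0499), but not with median centring (0.23, 0.193). The mean over probe sets called Foxo3 higher under PP2 (0.000185), DAPT (0.000112) and TAE226 (0.024). A second Foxo3 probe set had a narrower spread and read 2621, 2678 and 2818 under DAPT, 2223, 2244 and 2240.1 under PP2, 2142, 1957 and 2024 under TAE226 and 1725, 1819 and 1599 with vehicle. On that probe set all arrays of these 3 inhibitor groups lay above all vehicle arrays, and Foxo3 was called higher under DAPT (log2 fold change 0.66, adjusted p = 1.05e-06), PP2 (0.39, 0.000115) and TAE226 (0.25, 0.00753). Under U0126 it read 1817, 1847 and 2094 (0.16, adjusted p = 0.0621). The remaining Foxo3 probe set, near the array medians, was called under DAPT (0.80, 0.0476) and under no other inhibitor, so the Foxo3 result depended on the probe set.

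Of the genes that act on the insulin and PI3K pathway itself, Irs2 was dim. Pik3ip1 was called between inhibitors but, on its brightest probe set, not against vehicle. Irs2 encodes an adaptor that couples the insulin receptor to PI3K and is a FOXO target in liver. Its single probe set read 71.7, 29.1 and 15.5 under DAPT, 37.9, 102 and 76.3 under U0126, 124, 107 and 54.7 under TAE226, 68.1, 20.3 and 96.6 under PP2, and 53.3, 89.5 and 91.3 with vehicle. These signals lie around the array medians, which ran from 65.7 to 90.8, and under DAPT all 3 arrays were below their median. No comparison was called, and the standard error of 0.60 on the log2 scale was the widest of the 10 genes. Without DAPT replicate 1, the DAPT difference passed (adjusted p = 0.0328), but with every DAPT array dim its size was not measured. Pik3ip1 encodes a membrane protein that restrains the PI3K catalytic subunit. It read 207, 248 and 134 under DAPT, 262, 337 and 287 under U0126, 228, 305 and 259 under TAE226, 199, 178 and 177 under PP2, and 266, 251 and 219 with vehicle. All PP2 arrays were below all vehicle arrays, but the difference of −0.41 did not pass (adjusted p = 0.0762), nor did that of −0.36 under DAPT (0.144), which was called without DAPT replicate 2 (−0.56, 0.033). The PP2 difference was called with quantile normalization (−0.475, adjusted p = 0.0472) and with median centring (−0.53, 0.0325). Pik3ip1 was lower under DAPT than under U0126 (−0.63, adjusted p = 0.0111) and higher under U0126 than under PP2 (0.67, adjusted p = 0.00542), and its other probe set rose under U0126 (0.47, 0.0375). The difference between DAPT and U0126 was not called without DAPT replicate 3 (−0.37, adjusted p = 0.0712) or without U0126 replicate 2 (−0.53, 0.0555).

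Fbxo32 encodes atrogin-1, the F-box subunit of a ubiquitin ligase that was described as a FOXO target in wasting muscle. It was the most uniform riser of the set. Its signal was 8685, 8674 and 8567 under DAPT, 6018, 5934 and 5769.8 under U0126, 5833, 5918 and 6386 under TAE226 and 4115, 4241 and 4141 under PP2, against 3414, 3212 and 3594 with vehicle. Every array of every inhibitor group was above every vehicle array, and DAPT stood highest. The log2 fold change against vehicle was 1.34 under DAPT (2.54-fold, adjusted p = 3.98e-12), 0.80 under U0126 (1.74-fold, 1.46e-09), 0.83 under TAE226 (1.78-fold, 3.42e-09) and 0.29 under PP2 (1.22-fold, 0.000121), each with an SE of 0.051. In order of level DAPT came first, then TAE226 and U0126, which did not differ beyond their spread (U0126 minus TAE226 −0.03, 95% interval −0.14 to 0.07, adjusted p = 0.651), then PP2, then vehicle. The 2 other Fbxo32 probe sets were also higher under DAPT (1.46 and 1.43), U0126 (0.63 and 0.48) and TAE226 (0.66 and 0.50). Under PP2 they did not rise, with −0.07 (adjusted p = 0.461) on one and a fall of −0.19 (0.0148) on the other, so the direction under PP2 differed between probe sets of this gene. The skeletal muscle markers Acta1, Ckm and Mylpf summed to 208 to 344 over the inhibitor groups and 187 to 243 with vehicle, with no marker above 1.94 times its array's median.

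Sesn3 encodes a sestrin, a stress-induced protein that restrains mTORC1. Its signal was 2449.5, 2625 and 2539.7 under DAPT, 1338, 1773 and 1709 under U0126, 1594, 1553 and 1725 under TAE226 and 1796, 1765 and 1829 under PP2, against 1485, 1451 and 1593 with vehicle. The DAPT arrays lay above all 12 others. Sesn3 rose under DAPT by 0.75 (SE 0.083, 1.68-fold, adjusted p = 2.34e-06) and exceeded its level under U0126 by 0.67, TAE226 by 0.65 and PP2 by 0.50. On the other Sesn3 probe set the mean log2 signal was 10.191 under DAPT and 10.095 under U0126, with overlapping arrays. Under U0126 (0.08, adjusted p = 0.482) and TAE226 (0.11, 0.371) Sesn3 did not pass on its brightest probe set. Without U0126 replicate 1, the lowest array, it was called under U0126 (0.21, 0.0167). The other probe set was called higher under U0126 than with vehicle, at mean log2 signals of 10.095 and 9.788, although the arrays overlapped. The rise under PP2 of 0.25 (adjusted p = 0.0173) was not shared by the other Sesn3 probe set, which fell there (−0.33, adjusted p = 0.00778), and it was not called without vehicle replicate 2 (adjusted p = 0.063). Both probe sets rose under DAPT.

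Txnip had the widest range of the 10 genes and moved in opposite directions. It encodes an α-arrestin that binds thioredoxin and limits glucose uptake. Its signal was 2658, 2938 and 2605 under DAPT, 1942, 2229 and 2017 under TAE226 and 2808, 2867 and 2852 under PP2, against 1514, 1586 and 1432 with vehicle, and no array of these inhibitor groups overlapped vehicle. Under U0126 the signal was 676, 708 and 706, below every array of the other 4 groups. Against vehicle, Txnip rose by 0.86 under DAPT (1.81-fold, adjusted p = 1.65e-08), 0.45 under TAE226 (1.36-fold, 3.83e-05) and 0.91 under PP2 (1.88-fold, 2.59e-09), and it fell by 1.12 under U0126 (2.17-fold, 2.96e-10), each with an SE of 0.063. Its F statistic of 352 ranked 60 among all genes tested. DAPT and PP2 did not differ in Txnip beyond their spread (DAPT minus PP2 −0.06, 95% interval −0.19 to 0.08, adjusted p = 0.505), while TAE226 lay below PP2 (−0.47, 1.26e-05) and U0126 lay below PP2 by −2.03 (4.08-fold, 7.75e-14). The other Txnip probe set, at lower signal, gave 1.17 under DAPT, −1.28 under U0126 and 0.96 under PP2, all called, and 0.33 under TAE226, which was not (adjusted p = 0.14). With arrays centred on their medians the rise under TAE226 was 0.26 (adjusted p = 0.0352). Txnip was the member whose start site window held both the FOXO element and the carbohydrate response element shown above.

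The other targets act on growth and transcription. Ccng2 encodes cyclin G2, an unconventional cyclin that holds cells out of the cycle. Its signal was 3569.6, 3735 and 3704 under DAPT, 3699, 3339 and 3719 under TAE226, 3724, 4183 and 3961 under PP2 and 2697, 2589 and 2913 under U0126, against 3138, 3032 and 2801 with vehicle. The DAPT, TAE226 and PP2 arrays were all above the vehicle arrays, and the U0126 arrays overlapped them. Ccng2 rose by 0.30 under DAPT (adjusted p = 0.00159), 0.26 under TAE226 (0.00462) and 0.40 under PP2 (4.49e-05), and it was lower under U0126 than under each other inhibitor, by −0.53 against PP2 (1.87e-06). The second Ccng2 probe set was not called against vehicle under any inhibitor, with log2 fold changes from −0.27 to 0.22. With arrays centred on their medians the rise under TAE226 became 0.07 (adjusted p = 0.508) and that under DAPT 0.21 (0.0522).

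Bcl6 encodes a transcriptional repressor with roles in B cells and mammary epithelium. Its signal was 2557, 2589 and 2642 under DAPT and 1456, 1349 and 1639 under U0126, against 2249.7, 2076 and 2046 with vehicle. DAPT arrays were above and U0126 arrays below all vehicle arrays. Bcl6 fell under U0126 by 0.52 on the log2 scale (SE 0.098, adjusted p = 0.000383) and rose under DAPT by 0.29 (adjusted p = 0.0295). The rise under DAPT was not called when any 1 DAPT array was left out, or vehicle replicate 2 or 3 (adjusted p from 0.0553 to 0.0852), although the second Bcl6 probe set rose there too (0.55, 0.00652). Under TAE226 Bcl6 read 2075, 1548 and 1825 (−0.24, adjusted p = 0.0797, but 0.0166 without TAE226 replicate 1), and under PP2 it read 2319.9, 1943 and 2388 (0.06, adjusted p = 0.652). The second probe set rose under PP2 (0.72, adjusted p = 0.000373) and was not called under U0126 (−0.16, 0.389).

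Cited2, a co-regulator that competes with HIF1A for the coactivators CBP and p300, was the one member that fell under several inhibitors. Its signal was 3419, 3181 and 3479 under DAPT, 3439.9, 3008 and 3235 under U0126 and 3474, 3644 and 3576 under TAE226, against 4994, 4655 and 4839.5 with vehicle. All 9 arrays were below all vehicle arrays. The log2 fold change was −0.52 under DAPT (adjusted p = 1.86e-06), −0.58 under U0126 (3.42e-07) and −0.44 under TAE226 (1.75e-05), each with an SE of 0.057. Under PP2 the signal was 5207, 4878 and 5237, overlapping vehicle (0.08, adjusted p = 0.25) and above all arrays of the other 3 inhibitors, with a difference of −0.60 for DAPT minus PP2 (2.47e-07). The second Cited2 probe set was not called under DAPT (−0.01), U0126 (0.08) or TAE226 (0.19) and rose under PP2 (0.45, adjusted p = 0.0281), so the falls rest on the brighter probe set.

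**Figure D2:**
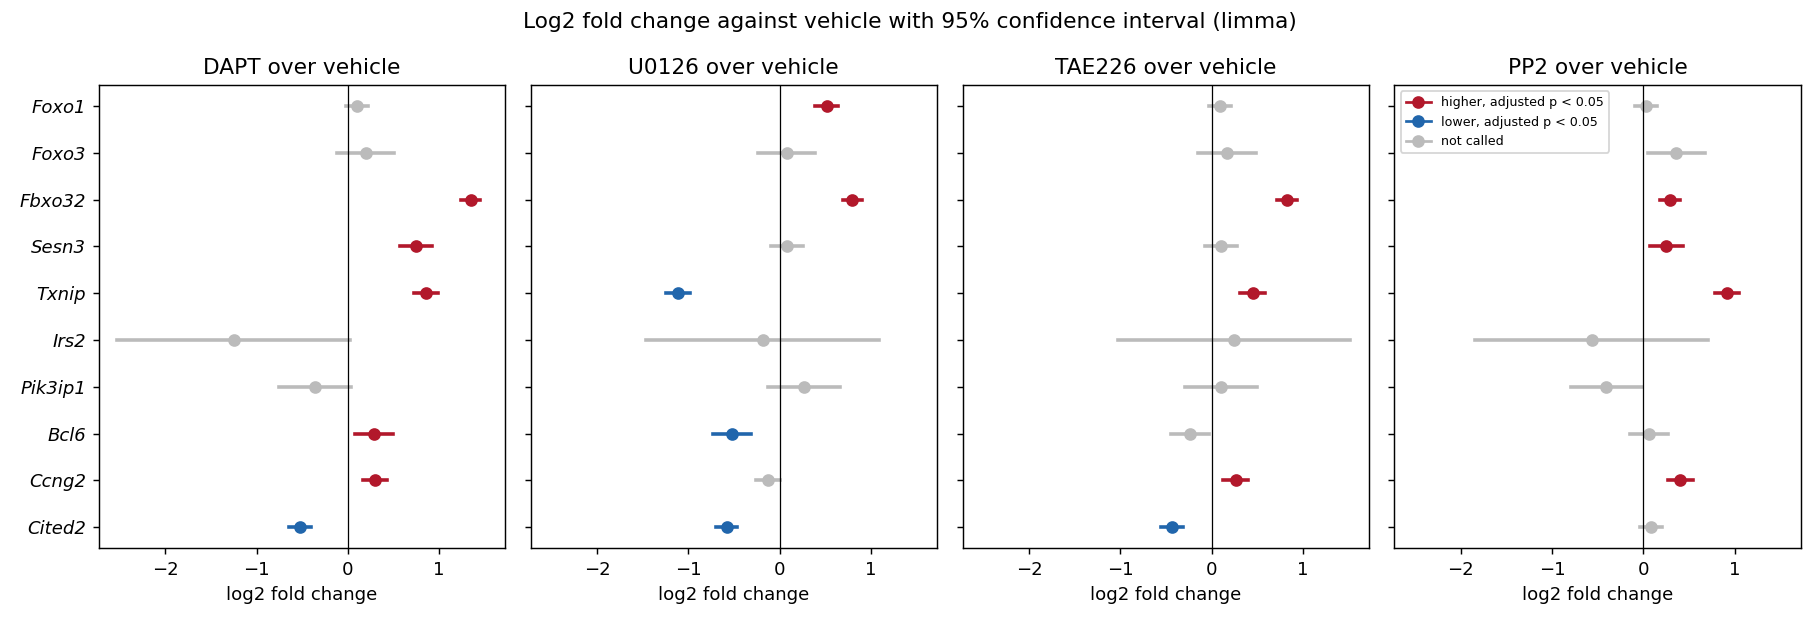
Log2 fold change of the 10 genes for each inhibitor over vehicle, with the 95% confidence interval from limma, in red where called higher, blue where called lower and grey where not called. Fbxo32 is the one gene called higher in all 4 panels, Cited2 is called lower in 3, and Txnip is called lower under U0126 and higher in the other panels.

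Reading all tested probe sets rather than 1 per gene showed where probe sets of a gene differ. Of the 22 probe sets, 14 rose and 1 fell under DAPT, beside 30.5% of all 21323 single-gene probe sets tested being called in either direction. Under U0126, 8 rose and 4 fell (35.5% of all called), under TAE226 7 rose and 1 fell (29.3%), and under PP2 9 rose and 2 fell (49.7%). Probe sets of one gene were called in opposite directions for Fbxo32 and Sesn3, both under PP2, the treatment with the highest actin 3′ to 5′ ratio, whose part in this was not tested.

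**Figure D3:**
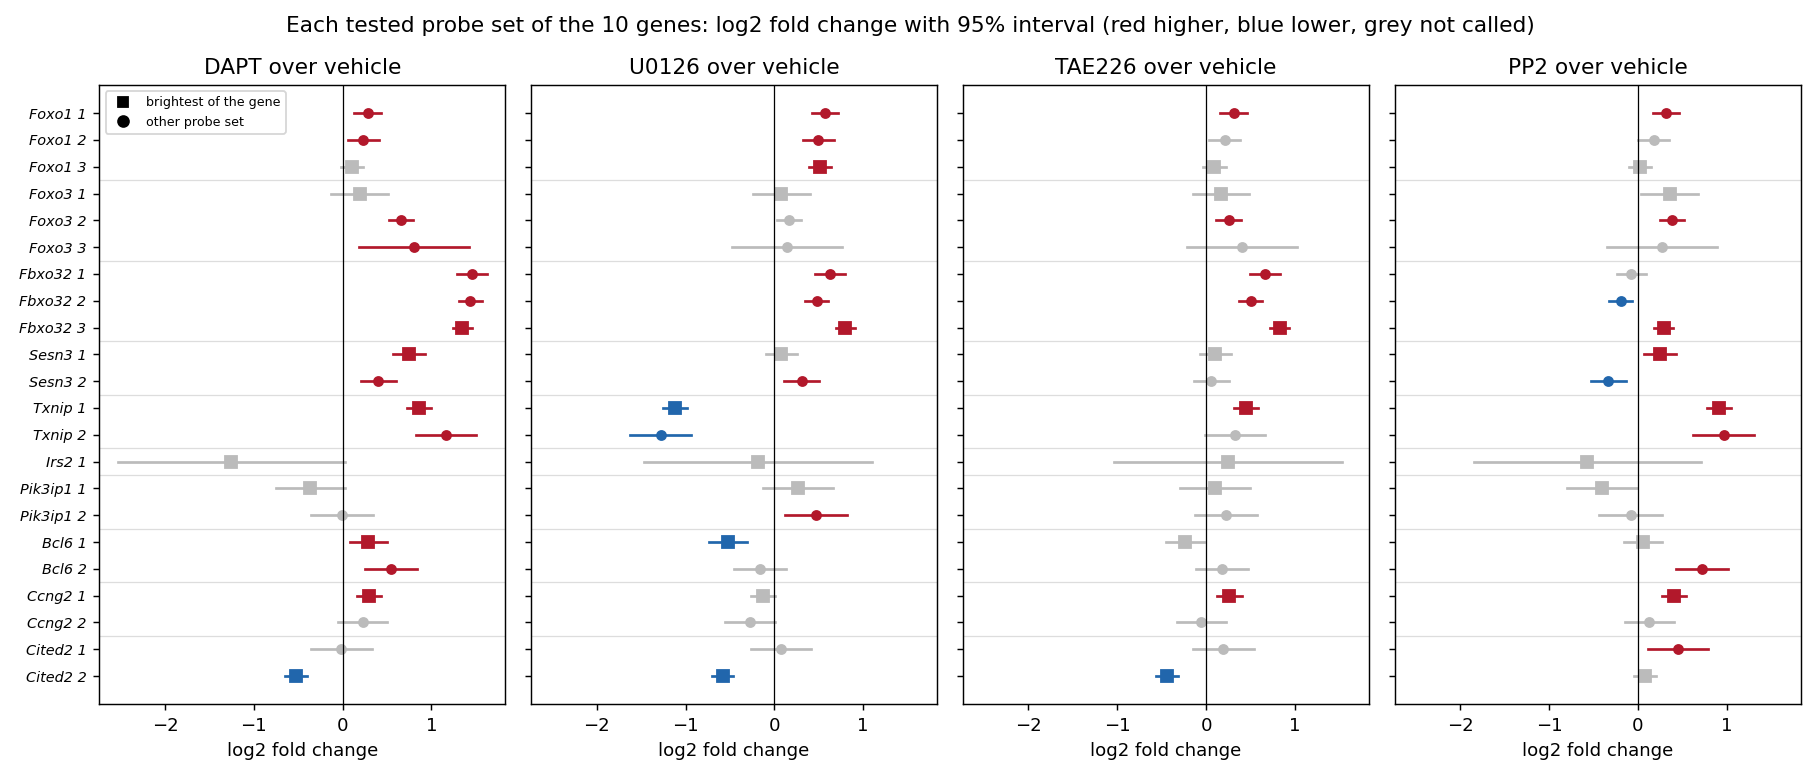
Log2 fold change with its 95% interval for each of the 22 tested probe sets, numbered within a gene, for each inhibitor over vehicle, with squares for the brightest probe set of a gene and circles for the others. Under DAPT the 3 Fbxo32 and the 2 Txnip probe sets are all called higher, and under PP2 Fbxo32 and Sesn3 each have a probe set called higher and another called lower.

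Setting the inhibitors against each other, U0126 stood apart from DAPT and from PP2 in 7 of the 10 genes each, beside 44.7% and 55.9% of all genes called in those comparisons. DAPT exceeded U0126 in 5 (Fbxo32, Sesn3, Txnip, Bcl6 and Ccng2) and was lower in Foxo1 and Pik3ip1. For Sesn3, the DAPT and U0126 arrays overlapped on its other probe set. U0126 exceeded PP2 in Foxo1, Fbxo32 and Pik3ip1 and was lower in Txnip, Bcl6, Ccng2 and Cited2. U0126 against TAE226 gave 4 calls (37.2% of all genes), with Foxo1 higher and Txnip, Ccng2 and Bcl6 lower. DAPT was higher than TAE226 in 4, Fbxo32, Sesn3, Txnip and Bcl6 (22.6% of all genes). DAPT against PP2 gave 3 calls (39.7%), with Fbxo32 and Sesn3 higher and Cited2 lower. TAE226 against PP2 gave 5 calls (43.6%), with Fbxo32 and Pik3ip1 higher and Txnip, Bcl6 and Cited2 lower, but 3 without TAE226 replicate 2 or without PP2 replicate 3. These comparisons share arrays, since each group enters several.

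Upstream of the factors, 18 of 21 listed PI3K-AKT regulators were tested. Inpp4b was below the filter. Under DAPT 8 rose and 3 fell, with Irs1 at −0.97 (adjusted p = 1.88e-06), Igf1r at 0.45 (0.00324), Pik3r1, a regulatory subunit of PI3K, at 0.39 (6.08e-05) and the AKT-related kinase Sgk3 at −0.39 (0.0159). Sgk3 was not called without DAPT replicate 1 (0.0527) or vehicle replicate 3 (0.0676), nor on 1 of its 2 other probe sets (0.122). With median centring 3 rose and 4 fell, and 7 were called without DAPT replicate 3, vehicle replicate 1 or vehicle replicate 2. Under U0126 4 rose and 4 fell, with the deacetylase Sirt1 at −0.70 (9.41e-05), Pik3r1 at 0.48 (5.06e-06) and Pik3r3 at −0.45 (1.84e-05). Under TAE226 7 rose and 2 fell (2 and 5 with median centring), with the catalytic subunits Pik3cb at 0.67 (1.41e-05) and Pik3ca at 0.41 (0.00291), which was not called with median centring (0.22, 0.0655) or on 2 of its 4 other probe sets. Igf1r rose there by 0.60 (0.000334) and Pik3r3 was at −0.46 (2.7e-05), both also called with median centring. A further Igf1r probe set was called (0.000223) and another was not (0.0638). Under PP2 9 rose and 4 fell (7 and 4 with median centring), with Pik3cb at 0.71 (2.14e-06) and the nuclear exporter Xpo1, which carries FOXO proteins out of the nucleus, at −0.69 (9.98e-07). The share of the list called was 61.1% under DAPT, 44.4% under U0126, 50% under TAE226 and 72.2% under PP2, beside 34.6%, 40.9%, 31.1% and 52.8% of all genes. The list's median log2 fold change was 0.15, 0.07, 0.08 and 0.18 under DAPT, U0126, TAE226 and PP2, beside 0.02, 0.00, 0.02 and 0.02 over all genes.

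Among 27 tested of 28 further FOXO targets, rises and falls were mixed. Under DAPT 11 rose and 8 fell, under U0126 5 and 9, under TAE226 8 and 6, and under PP2 11 and 11, with medians of 0.00, −0.07, 0.14 and 0.04 in that order; with median centring TAE226 gave 4 rises and 10 falls and DAPT 8 and 9. The share called was 70.4% under DAPT, 51.9% under U0126, 51.9% under TAE226 and 81.5% under PP2, beside 34.6%, 40.9%, 31.1% and 52.8% of all genes. Under DAPT the sestrin Sesn1 rose by 1.44 (adjusted p = 0.000119) and Tsc22d3, which encodes the glucocorticoid-induced leucine zipper, by 0.92 (4.83e-08), while the DNA damage gene Gadd45a fell by 1.31 (2.14e-07). Under U0126 the catalase gene Cat rose by 0.69 (2.09e-05) and Trib2 fell by 0.91 (1.4e-10). Under TAE226 and PP2 the mitophagy gene Bnip3 fell, by 1.88 and 1.21, and under PP2 the mTORC1 inhibitor Ddit4 fell by 1.36 (3.62e-13). Pdk4 was called lower under PP2 (adjusted p = 4.81e-06) and higher under U0126 (0.0144). The U0126 call ended without U0126 replicate 2 (0.0813) or vehicle replicate 3 (0.0601). Tnfsf10, the death ligand TRAIL, was dim under all 4 inhibitors and at least 1.68-fold lower under DAPT, 1.74-fold under U0126, 1.55-fold under TAE226 and 1.58-fold under PP2 than with vehicle. Cdkn1b, the cell cycle inhibitor p27, fell under TAE226 on its brightest probe set (−0.61, adjusted p = 2.9e-07) and rose on another (0.55, 0.00128), so no direction can be given.

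Paralogues of the members also differed among themselves. Of 10 tested paralogues, 6 rose and 1 fell under DAPT, 1 rose and 1 fell under U0126, 6 rose and 1 fell under TAE226 (1 and 2 with median centring), and 5 rose and 0 fell under PP2. The share called was 70% under DAPT, 20% under U0126, 70% under TAE226 and 50% under PP2, beside 34.6%, 40.9%, 31.1% and 52.8% of all genes, so that it was below the share of all genes under U0126 and near it under PP2. Txnip belongs to the α-arrestins, and its relative Arrdc4 rose under DAPT (0.39), TAE226 (0.34) and PP2 (0.90, adjusted p = 3.32e-08) but was not called under U0126 (0.16, 0.108), where Txnip fell. Arrdc2 rose under U0126 by 0.91 (0.000281). Irs1, the relative of Irs2, fell under DAPT and under U0126 (−0.97 and −0.44). The sestrins differed, with Sesn1 higher under DAPT and Sesn2 under TAE226 (0.79, 3.66e-06), although another Sesn2 probe set was not called there (0.09, 0.657). Cited4 rose under DAPT by 0.81 (1.76e-05) and under PP2 by 0.73 (2.05e-05), while Cited2 fell under DAPT. Irs1, Sesn1, Insr and Igf1r each stand in 2 of the 3 lists.

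**Figure D4:**
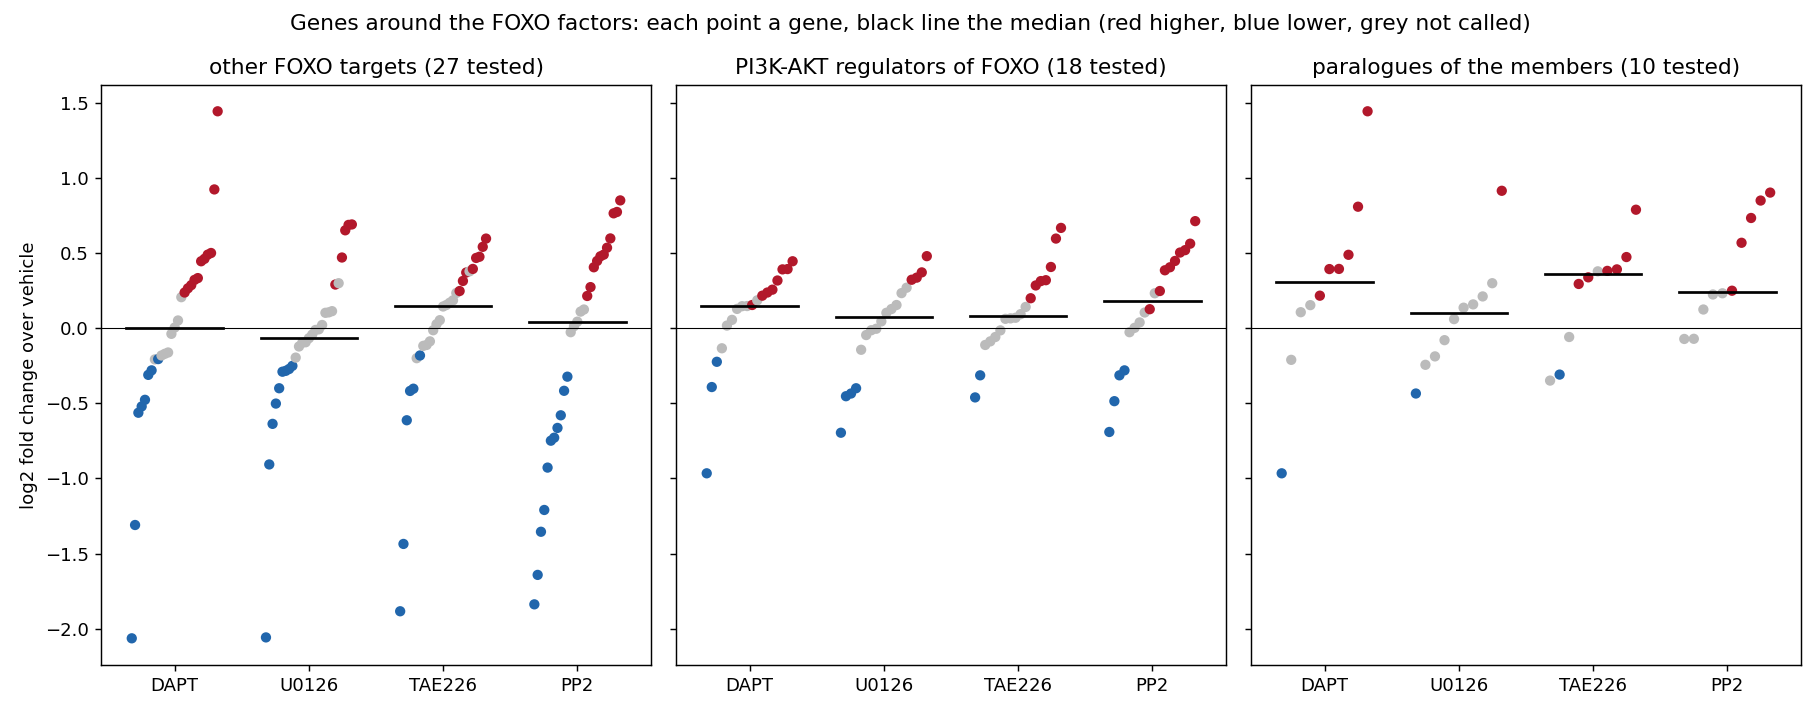
Log2 fold change of each tested gene in 3 lists, other FOXO targets, PI3K-AKT regulators of FOXO and paralogues of the members, for each inhibitor over vehicle, with a point per gene and a bar at the list's median. Each list spreads to both sides of 0, with medians between −0.07 and 0.36.

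Likeness over the 15 arrays is given as a description, since the arrays share 5 treatments. The genes most like Foxo1 were Phldb2, Peg3 and Ociad2 (Pearson r 0.952, 0.95 and 0.946, Spearman rho 0.818, 0.718 and 0.775). Those most like Foxo3 were Ube3b, Rgma and Vcp (r 0.854, 0.847 and 0.843, rho 0.818, 0.761 and 0.864). Those most like Txnip were Acyp2, Ctdsp2 and Synj2bp (r 0.987, 0.985 and 0.982, rho 0.957, 0.889 and 0.921). Among the members, Txnip was most like Ccng2 (r 0.899) and ran opposite to Foxo1 (r −0.804), and Fbxo32 ran with Sesn3 (r 0.695) and opposite to Cited2 (r −0.835).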

How the data were processed

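Total RNA from 15 mammosphere samples was hybridised to Affymetrix Mouse430_2 arrays. The deposited values are linear signal intensities, 1 per probe set and array, made by the authors with Affymetrix Expression Console and MAS5, per the submitters' processing notes; no source used here gives their versions. The values had been scaled so that each array's mean, with 2% trimmed from either tail, came to 500. Without detection calls, a probe set below its array's median is called dim.

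Genes were named from GEO's platform annotation, which gave 1 gene for 34945 of 45101 probe sets, several for 932 and no listed gene for 9160, and symbols were updated by Entrez ID for 34741. Each gene was read by its brightest single-gene probe set. Log2 intensities, with no pseudocount, entered a model with a coefficient for each group and a variance trend over intensity (limma 3.58.1, R 4.3.3, 10 residual degrees of freedom), and two-sided p-values were adjusted by Benjamini and Hochberg over 11412 genes, or over 21323 probe sets where single probe sets are given. The script was tested on simulated data. Where a group was dim, a fold is a lower bound. Of the listed regulators, 2 are not reported here. At most 4 called genes per list and comparison, those with the largest changes, could be named; the members and lists were chosen with earlier results of these data known, and Arrdc4 under DAPT, TAE226 and U0126 was chosen after its values were seen.

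Alternatives were quantile normalization, median centring, a pseudocount of 64, no filter or one of 6 arrays, the mean over probe sets, no intensity trend, a replicate block and each array left out. The number of arrays limits the precision, with a median SE of 0.0976. The labels call the replicates biological but do not say whether they were different mice or cultures. The p-values therefore reflect only how these samples spread, which may not be the spread between mice. No 2 arrays shared more than 2 values. Promoter sequences are RefSeq's, GRCm38.p6.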

Additional observations from a re-analysis of the deposited data

How the results depend on the processing

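Of the 40 fold changes of the members against vehicle, 34 kept direction and call under median centring, 38 under quantile normalization and 27 under the mean over probe sets. Under that mean, Sesn3 reversed, to −0.04 for PP2 against vehicle (adjusted p = 0.699) and to 0.23 for U0126 against PP2 (0.0202), and Fbxo32 under PP2 was 0.01 (0.912), because probe sets of these genes disagreed. Under TAE226 the calls of Ccng2 (0.10, 0.267) and Cited2 (−0.12, 0.311) ended. Newly called were Ccng2 under U0126 (−0.20, 0.0282), and Bcl6 (0.39, 0.00166) and Cited2 (0.27, 0.018) under PP2. Foxo1 and Foxo3 were newly called under DAPT, TAE226 and PP2, as given above. Median centring moved the median of all genes to −0.07 under DAPT, −0.07 under U0126, −0.17 under TAE226 and −0.11 under PP2, and the rises among calls from 1950 of 3948 to 1084 of 3503 under DAPT, from 2222 of 4663 to 1484 of 4308 under U0126, from 1732 of 3548 to 625 of 4482 under TAE226 and from 2978 of 6030 to 1793 of 5595 under PP2. With it, Sesn3 under PP2 (0.12, adjusted p = 0.343), Bcl6 under DAPT, and Ccng2 under DAPT and TAE226 lost their calls, while Bcl6 fell under TAE226 (−0.43, 0.00419) and Pik3ip1 under PP2 (−0.53, 0.0325); the regulators called under DAPT were 7 against 11 and the paralogues called under TAE226 3 against 7. The mean over probe sets gave 4 paralogues called under U0126 against 2. The cause was not tested.

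Leaving out 1 array at a time gave 3 to 5 members called for TAE226 against PP2 and 7 to 9 regulators called under DAPT. The TAE226 against PP2 calls of Bcl6 and Pik3ip1, and that of Bcl6 for U0126 against TAE226, ended under several such omissions. Pik3ip1 for TAE226 against PP2 also lost its call with quantile normalization (adjusted p = 0.0563), median centring (0.0853), no filter (0.057) and no intensity trend (0.0502), and Bcl6 for U0126 against TAE226 with median centring (−0.17, 0.23) and no intensity trend (0.0591).

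The signals showed no pairing of arrays by replicate number. Same-numbered arrays' deviations from their group means correlated at −0.238 to 0.2, and 4 of 15 arrays correlated best with their own number. The labels do not say whether same-numbered samples were handled together, and these correlations cannot settle it. With the number as a replicate block, members called against vehicle were 6 under DAPT, 5 under U0126, 5 under TAE226 and 4 under PP2, the addition being Bcl6 under TAE226 (−0.24, adjusted p = 0.0397).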
